A study of Danio rerio with 2 samples.

Results

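The genes of the cytosolic ribosome were examined in an ATAC-seq comparison of zebrafish embryos with and without Npas4l, the bHLH-PAS transcription factor at the head of endothelial and blood cell specification. ATAC-seq marks open chromatin by the cuts of the Tn5 transposase. Members were the rows of the deposited region table whose gene symbol begins with rpl or rps and a number, or is rplp0, rplp1, rplp2 or rpsa, leaving out the S6 kinases (rps6k) and the mitochondrial ribosome (mrpl, mrps). This gave 78 of 35854 open regions, at 63 of 14589 genes with an assigned region. Of the 63 genes, 37 encode proteins of the large subunit or proteins named like them, and 26 belong to the small subunit. The members were chosen by name only, so all values given for them are descriptions of what the name rule did not use.

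One library came from a single wild type embryo of the AB strain and 1 from a single embryo homozygous for the npas4l allele bns297, both at the 1-somite stage, freed of chorion and yolk before lysis. The growth protocol of both names wild type AB embryos, so the mutant genotype rests on the genotype label, and the npas4l gene itself was not analysed here. With 1 library per genotype no difference was tested, no p-value is given, and how far any 2 embryos of the same genotype differ is not known from these data. Recovered reads in all regions came to 7853828 for the wild type and 7066666 for the mutant embryo. Of 21 symbols of germ layer and tissue markers, 18 had an open region, among them noto (notochord), myod1 (somites), sox2 (neural), krt4 (epidermis) and sox32 (endoderm), so markers of several germ layers were open, while tbxta (also searched as ta) and sox17 were not among the symbols. In whole embryos, fewer cells with an open site and less opening in each cell cannot be told apart.

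Ribosomal proteins are the protein part of the small subunit, which decodes mRNA, and of the large subunit, which joins amino acids. Their genes are transcribed in nearly all cells from strong promoters, and their mRNAs share a pyrimidine-rich start that couples their translation to growth signals. In humans, loss of 1 copy of many of these genes causes Diamond-Blackfan anaemia, a failure of red cell production, and zebrafish embryos short of single ribosomal proteins also show defects of blood formation.

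Ribosomal protein genes were among the more open promoters of the embryo. Of the 63 genes, 61 (96.8%) had a region centred within 1 kb of their transcription start site (TSS), against 86.5% of all genes with a region. The 64 regions within 1 kb had a median of 353 normalised reads in the wild type library (quartiles 209 to 482), whereas the median of all 13036 regions this close to a TSS was 152 (73 to 323). Per kb of region width the medians were 576 and 291 normalised reads. Of these 64 regions, 54 lay above the median of all regions within 1 kb, 35 above the 75th percentile and 7 above the 90th, so most were well open but few were among the most open. In the mutant library the same 64 regions had a median of 406.

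The widest range lay between the stalk and other core proteins at the top and a few poorly open genes at the bottom. The region at rplp0 (ENSDARG00000051783), the base of the stalk that recruits elongation factors, held 1045 normalised reads in the wild type and 1178 in the mutant library, on chromosome 5 at 1697854 to 1698525 of GRCz10. Its wild type level of 1557 normalised reads per kb was higher than that of 97.9% of regions within 1 kb. Next stood the region 840 bp upstream of rpl14 (ENSDARG00000103433), with 1022 and 1129 normalised reads and 1471 per kb in the wild type. It lay outside the gene body and did not span the TSS, and whether it belongs to rpl14 was not tested. The exact Poisson intervals of the rplp0 and rpl14 wild type levels, 985 to 1108 and 962 to 1084, overlapped, so their order is not resolved. Further down stood rpl13 with 754 and 919, rpl12, a protein of the stalk base, with 748 and 766, and rpl36a with 668 and 698 normalised reads in wild type and mutant. Of these 5, rplp0, rpl14 and rpl13 were higher in the mutant library beyond counting error, while rpl12 and rpl36a differed by less than it. By the same rule, 33.5% of all regions within 1 kb in the 3 highest level deciles were higher and 10.5% lower.

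**Figure D1:**
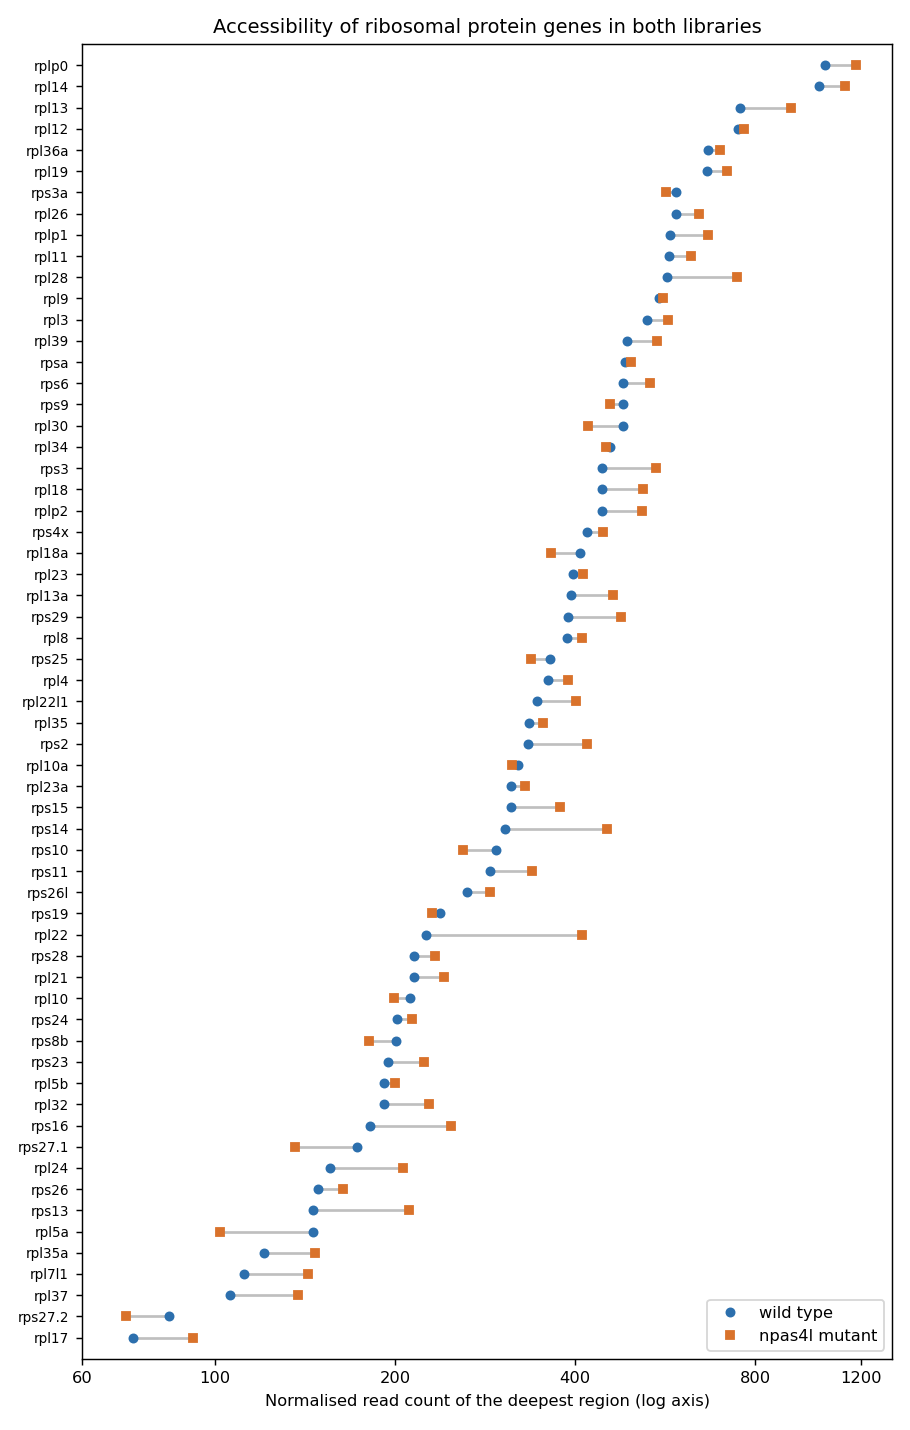
Normalised read count (log axis) of the deepest region of 61 ribosomal protein genes in the wild type (circles) and npas4l mutant library (squares), ordered by the wild type value, with 1 library per genotype. Values run from 73 at rpl17 to 1045 at rplp0 in the wild type, and the widest gap between the libraries is at rpl22, with 225 against 410.

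At the low end, the region within 1 kb with the fewest wild type reads was the one 755 bp into the small subunit gene rps27.2, with 60 normalised reads in the wild type and 75 in the mutant library (0.32, −0.20 to 0.82). Another rps27.2 region, 63 bp from the TSS, held 84 and 71. The rpl17 region, at a large subunit gene near the exit tunnel, held 73 in the wild type and 92 in the mutant library, or 122 per kb in the wild type. The table gives this rpl17 gene (ENSDARG00000057556) a length of 70014 bp, against a median of 5311 bp for the members. The region labelled rpl37 held 106 and 138 normalised reads, or 156 per kb in the wild type. Its identifier, ENSDARG00000076360, is named COA1 in the gene name table, which gives the name RPL37 to ENSDARG00000034291, a gene with no symbol in the deposited table whose region held 166 and 257. The rpl37 label is therefore uncertain. The other 7 identifiers whose name differs between the tables belong to the same protein or a close relative, such as rpl36a (RPL36AL) and rps4x (RPS4Y2).

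The open region at these genes was centred inside the gene. Counting into the gene as positive, the centre lay at a median of 155 bp from the TSS for the 64 regions within 1 kb, against 89 bp for all regions within 1 kb, and 56 of 64 (87.5%) were centred downstream of the TSS, against 71.1%. This position was not particular to ribosomal protein genes. Translation factor regions within 1 kb had a median of 178.5 bp, with 95.8% centred downstream. For ribosome biogenesis and mitochondrial ribosome genes the medians were 69 and 74 bp, with 68.9% and 69.8% downstream. Of the 64, 59 (92.2%) spanned the TSS itself, against 82.4%. Their width had a median of 598 bp (quartiles 517 to 727) and that of all regions within 1 kb 505 bp (351 to 700). Regions in the 3 highest level deciles, where 55 of the 64 fell, showed the same difference in position (164 bp for the 55, 87 bp for all 6224), but not in width, where the medians were 644 and 680 bp. Wider regions held more reads among members as elsewhere (Spearman's rho of 0.54 over the 64 regions and 0.73 over all regions within 1 kb, as descriptions, since a region's width and its reads come from the same libraries).

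**Figure D2:**
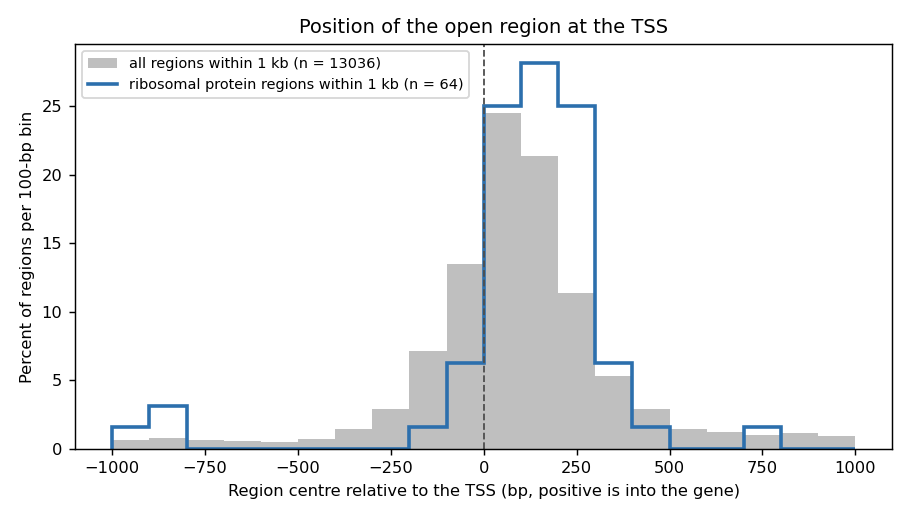
Position of region centres relative to the TSS in bp, positive into the gene, as the percent of regions per 100-bp bin for the 64 ribosomal protein regions within 1 kb (line) and all 13036 regions within 1 kb (grey). The ribosomal protein regions sit mainly between the TSS and 300 bp into the gene, with a median of 155 bp against 89 bp.

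The widest regions were at rpl9 (1114 bp), rpl36a (910 bp) and rpl28 (891 bp), and the narrowest at rplp2 (200 bp, 4137 bp from its TSS), rpl3 (204 bp, 4358 bp from its TSS) and rps27.2 (229 bp). All regions within 1 kb ran up to 5272 bp. The genes themselves were compact, with a median length of 5311 bp against 16620 bp for all genes with a region. They were spread over 22 of 25 chromosomes, with at most 5 genes on a chromosome.

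Between the libraries, ribosomal protein promoters differed little. On the log2 scale, the ratio of mutant to wild type values (each with 1 added, which understates differences of low regions) had a median of 0.13 over the 64 regions within 1 kb (quartiles 0.01 to 0.27), and all regions within 1 kb had a median of 0.11 (−0.10 to 0.33). Of the 64, 48 (75%) lay above 0, against 62.9% of all regions within 1 kb. These medians are nearly equal, and the members lay in a narrower band, with an interquartile range of 0.26 against 0.44. In the 3 highest level deciles, where counting error is smaller, the ranges were 0.21 and 0.33. Among the 64, the range was 0.17 for large subunit and 0.37 for small subunit regions. It was 0.42 for 15 ribosomal protein regions found by identifier only, which are described below. The narrow band thus did not hold alike for all ribosomal protein genes. Over all 78 regions the median was 0.12 (−0.07 to 0.28), against 0 for all regions of the table. It was 0.03 after subtraction of the median of all regions of the same level decile and promoter class.

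By a rule of size of 2-fold, 1 of the 78 regions was higher in the mutant library, where 3.78% of all regions were, and 0 were lower, where 4.03% were. Within 1 kb of the TSS 0 of 64 passed in either direction, against 2.68% higher and 1.02% lower of all such regions. At 1.5-fold, 3 of the 78 were higher (11.4% of all regions) and 2 lower (12.5%), and within 1 kb 1 was higher (10.5%) and 0 lower (3.87%). Regions of high level rarely passed either rule. In the 3 highest level deciles within 1 kb, 0 of 55 members passed 2-fold, against 0.643% of all 6224 regions, both directions together. At 1.5-fold 1 of the 55 was higher and 0 lower there, against 243 and 51 of the 6224. Beyond the exact 95% Clopper-Pearson interval of the read split, which covers counting error only, since reads copied by PCR and not tagged may stem from 1 molecule, 24 of 78 lay above 0 and 8 below, against 20.0% and 18.0% of all regions. Within 1 kb of the TSS the counts were 21 above and 4 below of 64, against 27.2% and 9.67% of all such regions, and in the 3 highest level deciles 20 above and 2 below of 55, against 33.5% and 10.5%. With 20.0% and 18.0% of all regions beyond it, this interval is narrower than the spread between these libraries, and a value beyond it is no sign of a difference between genotypes. When both libraries were scaled to the same total, 17 of the 64 lay above 0 and 4 below, against 24.2% and 11.3% of all regions within 1 kb. With the trend of level and promoter class removed, 10 lay above and 6 below, against 17.6% and 16.5%.

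The members as a whole took 0.348% (0.344 to 0.353) of the recovered wild type reads and 0.371% (0.366 to 0.375) of the mutant reads, with exact binomial 95% intervals for counting error only. A larger share in the mutant library was not particular to them. All regions within 1 kb took 55.5% and 56.4%, and translation factor regions 0.288% and 0.309%. All assigned regions beyond 1 kb went the other way, with 14.1% and 13.8%.

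**Figure D3:**
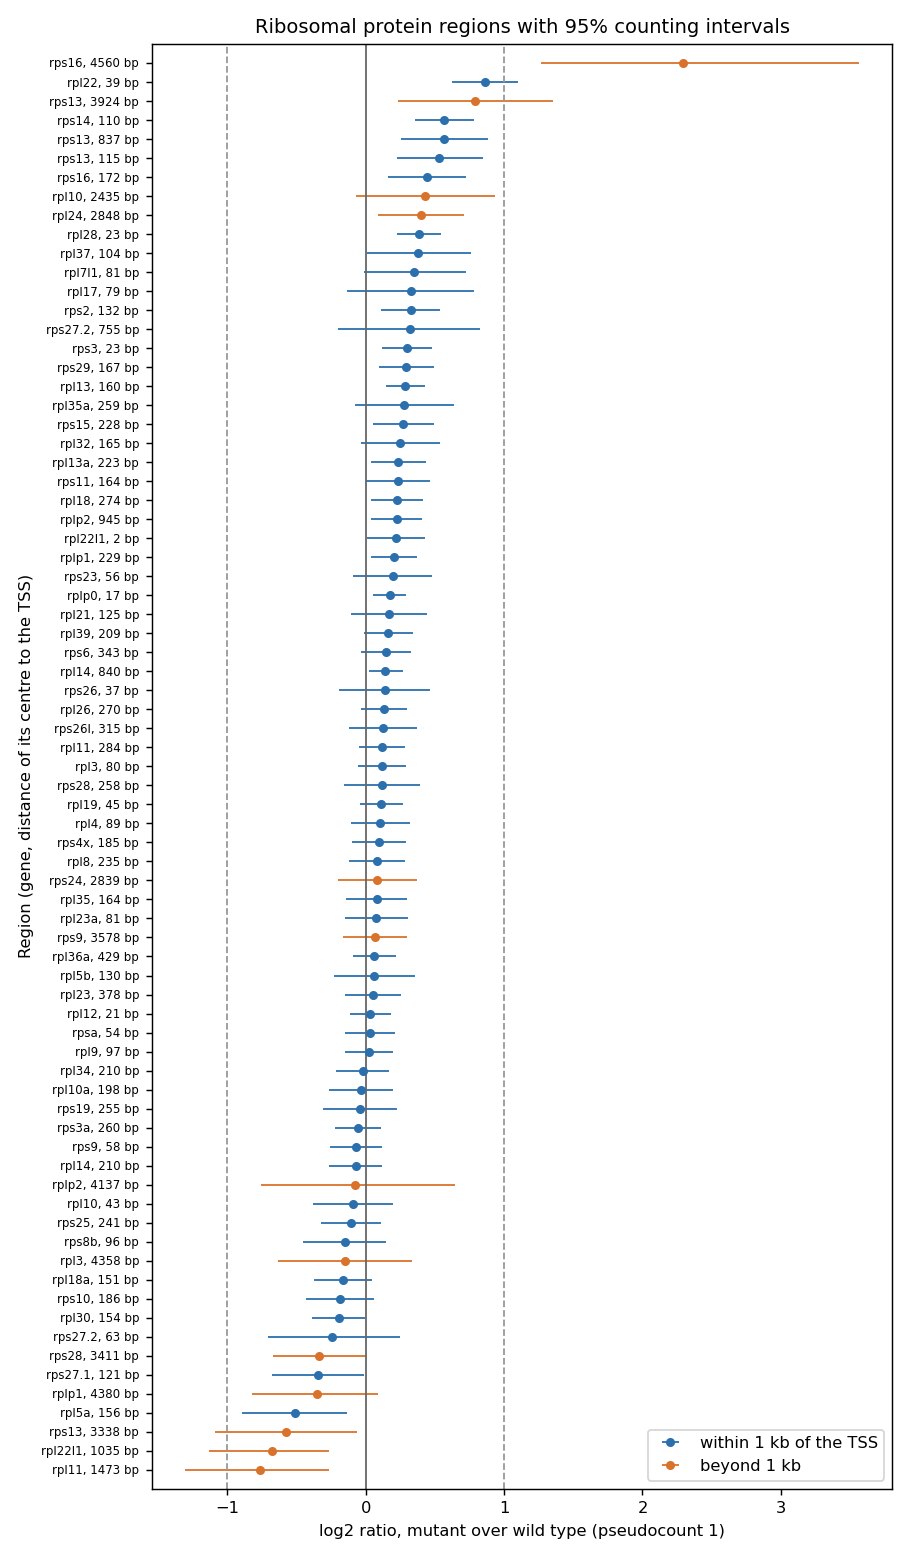
The log2 ratio (mutant to wild type) and its exact 95% counting interval for 75 ribosomal protein regions, labelled by gene and distance to the TSS, with dashed lines at 2-fold. The 62 regions within 1 kb (blue) run from −0.51 to 0.86, and the region 4560 bp from the rps16 TSS, at 2.29, is the one past 2-fold.

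In the ratio plot the largest difference at a promoter was at rpl22 (ENSDARG00000070437), an RNA-binding protein of the large subunit that is known in mice for its part in lymphocyte development. Its region on chromosome 11, 29410300 to 29411167, centred 39 bp from the TSS, held 225 normalised reads in the wild type and 410 in the mutant library. That is 1.82-fold higher in the mutant library, a log2 ratio of 0.86 (0.63 to 1.10). No other member promoter reached 1.5-fold.

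Among promoters higher in the mutant library, small subunit genes came next. The rps14 region (ENSDARG00000036629, chromosome 21, 33418315 to 33419040), at a gene whose human counterpart is lost in the anaemia of the 5q− syndrome, held 305 and 453 normalised reads in wild type and mutant, a log2 ratio of 0.57 (0.36 to 0.78). At rps13 (ENSDARG00000036298, chromosome 7) the region 115 bp from the TSS held 146 and 211 (0.53, 0.22 to 0.85), and the region 837 bp upstream held 143 and 212 (0.56, 0.26 to 0.88). The promoter region of rps16 (ENSDARG00000045487, chromosome 4, 21931241 to 21931751) held 182 and 248 (0.44, 0.17 to 0.73). All 4 were higher in the mutant library, and both rps13 regions near the TSS were so to a like degree.

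In the large subunit, rpl28 held 570 and 746 normalised reads (0.39, 0.23 to 0.55) and rpl13 held 754 and 919 (0.29, 0.15 to 0.43). In the small subunit, rps2 and rps3, proteins at the mRNA entry channel, held 334 and 419 (0.33, 0.11 to 0.54) and 444 and 546 (0.30, 0.12 to 0.48). These are differences of 1.22-fold to 1.31-fold, all higher in the mutant library.

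In the other direction, 4 of the 64 promoter regions (6.25%) were lower in the mutant library beyond counting error. Of all regions within 1 kb, 9.67% were. Among the 4, the largest difference was at rpl5a, given with the 5S particle below. The rps27.1 region held 173 and 136 normalised reads (−0.34, −0.68 to −0.01), and that of rpl30 480 and 420 (−0.19, −0.39 to −0.00087). The rps27.1 and rpl30 intervals barely exclude 0.

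**Figure D4:**
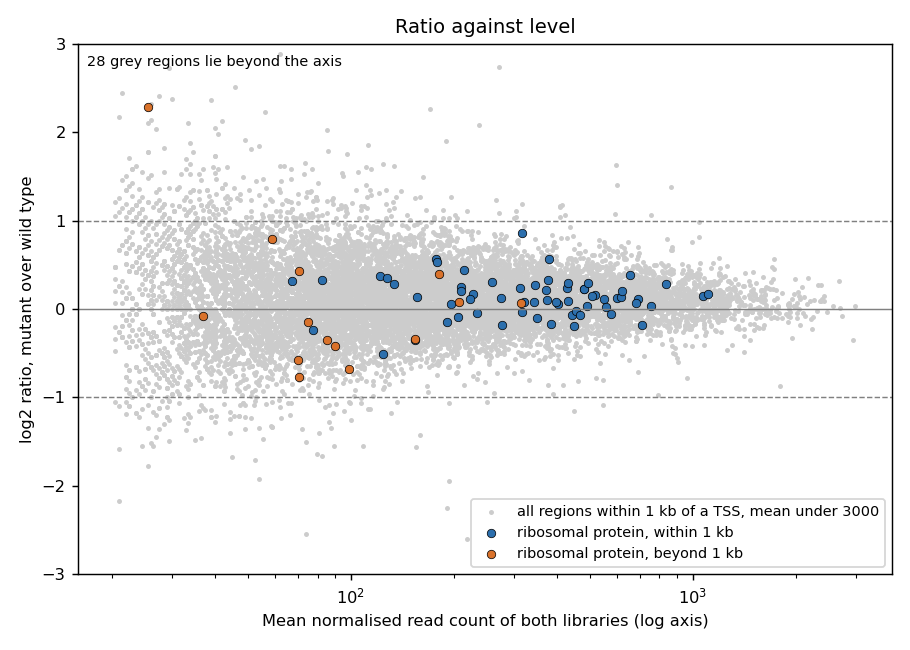
The log2 ratio against the mean normalised read count of both libraries (log axis) for ribosomal protein regions within 1 kb of the TSS (blue) and beyond (orange), over all regions within 1 kb with a mean under 3000 (grey, values beyond the axis not drawn). Ribosomal protein promoters lie inside the grey band, and the spread of both narrows with level.

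The genes of the 5S ribonucleoprotein went in different directions. Rpl5 and Rpl11 carry 5S rRNA into the large subunit and, when ribosome assembly fails, bind Mdm2 and stabilise p53. The rpl5a region (ENSDARG00000020197, chromosome 2, 10919608 to 10920124) held 146 normalised reads in the wild type and 102 in the mutant library, a log2 ratio of −0.51 (−0.89 to −0.13). Its duplicate rpl5b held 192 and 200 (0.06, −0.23 to 0.36). The rpl11 promoter held 574 and 624 (0.12, −0.04 to 0.29), and a narrow region 1473 bp into the gene held 89 and 52 (−0.76, −1.30 to −0.26). Thus the rpl5a promoter and the intragenic rpl11 region were lower in the mutant library, while the rpl5b and rpl11 promoters differed by less than counting error. The intragenic rpl11 region had the lowest log2 ratio of the 78.

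Among the stalk genes, the regions of rplp0 (0.17, 0.05 to 0.29) and rplp1 (0.21, 0.04 to 0.37, with 577 and 666 normalised reads), and the one 945 bp upstream of rplp2 (0.23, 0.04 to 0.41, with 443 and 518), were each slightly higher in the mutant library. All regions within 1 kb in the 3 highest level deciles had a median of 0.10, with 33.5% above 0 beyond counting error. With the trend of level and promoter class removed, these stalk regions were at 0.08 (rplp0), 0.12 (rplp1) and 0.14 (rplp2). Regions more than 4 kb away were at −0.35 (−0.82 to 0.09) for rplp1 and −0.08 (−0.76 to 0.64) for rplp2, both within counting error. For rplp2 no region spanned the TSS given in the table.

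Genes mutated in human Diamond-Blackfan anaemia were examined as a list because blood formation depends on Npas4l. Of 22 symbols listed, 17 had regions by symbol, 20 in all, with a median log2 ratio of 0.10 (quartiles −0.20 to 0.16). None of the 20 reached 2-fold, where 3.78% of all regions were higher and 4.03% lower. Beyond counting error 3 were above 0 and 4 below, shares of 15% and 20%, beside 20.0% and 18.0% of all regions. Of the 20, 17 lay within 1 kb of the TSS, where the shares of all regions were 27.2% above and 9.67% below. At 2-fold the shares there were 2.68% higher and 1.02% lower. Among the 3 above 0 were rps29 (389 and 477 normalised reads; 0.29, 0.10 to 0.49) and rpl18 (443 and 519; 0.23, 0.04 to 0.41). The 4 were the promoters of rpl5a and rps27.1 and, beyond 1 kb, the intragenic rpl11 region and a region 3411 bp from the rps28 TSS. Of the 4, only rpl5a and rps27.1 thus compare with the shares within 1 kb. With the trend of level and promoter class removed, the median log2 ratio of the 20 was 0.0015. At rps19, the gene most often mutated in that disease, 238 and 231 normalised reads gave −0.04 (−0.31 to 0.23). The rps6 region, at the substrate of the S6 kinases, held 481 and 534 (0.15, −0.03 to 0.33). Neither differed beyond counting error.

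Duplicated or related genes did not always share a value. Between rpl22 and its relative rpl22l1 the promoters held 225 and 345 normalised reads in the wild type, but 410 and 402 in the mutant library. The log2 ratio at the rpl22l1 promoter was 0.22 (0.01 to 0.43), and its interval does not overlap that of rpl22. The rps26 and rps26l regions had close values, at 0.14 (−0.19 to 0.46) and 0.13 (−0.12 to 0.37). The rps27.2 region 63 bp from the TSS was at −0.24 (−0.71 to 0.25), beside −0.34 for rps27.1. The other rps27.2 region, 755 bp into the gene, was at 0.32 (−0.20 to 0.82). The sources used here do not say whether reads that match more than 1 copy were kept, so values of near-identical copies are uncertain.

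Beyond 1 kb from the TSS lay 14 of the 78 regions, at 13 genes. They were weaker and narrower than the promoters, with a median of 92.5 normalised reads in the wild type and a width of 296 bp. All assigned regions beyond 1 kb had medians of 93 normalised reads and 351 bp. In all 11 member genes with regions both within and beyond 1 kb, the nearer region was the stronger in the wild type, by 1.25-fold to 22.8-fold. The like share was not computed for other genes. Of the 14, 9 (64.3%) lay past the 3′ end of the gene, 2 inside it and 3 upstream, whereas 9.31% of all assigned regions beyond 1 kb lay past the gene end and 53.6% upstream. The genes are short, as given above, and whether regions past a gene end belong to a neighbouring gene was not tested. The log2 ratios of the 14 had a median of −0.11, with 6 above 0 and 8 below. All 4448 assigned regions beyond 1 kb had a median of 0, with 48.5% above 0. With the trend of level and promoter class removed, the medians were 0.03 for the 14 and 0.06 for all 4448.

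The 1 member region past 2-fold was of this kind. It lay 4560 bp from the rps16 TSS, 927 bp past the gene end on chromosome 4 at 21926990 to 21927226, and held 8 normalised reads in the wild type and 43 in the mutant library. The log2 ratio was 2.29 (1.27 to 3.56), a 4.89-fold higher value that rests on few wild type reads. Past the end of rps13, a region 3924 bp from the TSS held 43 and 75 normalised reads (0.79, 0.23 to 1.36), while another 3338 bp from it held 84 and 56 (−0.58, −1.08 to −0.06). These neighbours, both past the gene end, went in opposite directions.

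The remaining regions beyond 1 kb did not reach 2-fold, which 8.59% of all assigned regions beyond 1 kb did, both directions together. The region 1035 bp upstream of rpl22l1 held 122 and 76 normalised reads (−0.68, −1.13 to −0.26), lower in the mutant library although the rpl22l1 promoter was slightly higher. The rps28 region 3411 bp away held 172 and 136 (−0.34, −0.67 to −0.00016). The rps9 region 3578 bp away, the strongest of the 14, held 307 and 322 (0.07, −0.16 to 0.30). The regions of rpl10, 2435 bp upstream (0.43, −0.07 to 0.93), and rpl3, 4358 bp away (−0.15, −0.63 to 0.34), did not differ beyond counting error. For rpl24 and rps24 the sole region was of this kind. That of rpl24, 2848 bp upstream, held 156 and 206 (0.40, 0.09 to 0.71), and that of rps24, 2839 bp into the gene, 202 and 214 (0.08, −0.20 to 0.37).

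Of all regions within 1 kb 62.9% lay above 0, and of all assigned regions beyond 1 kb 48.5%. Among the 13 genes with more than 1 region, rps16 had both above 0. In 7 of the 12 genes with exactly 2 regions, the deeper region was above 0 and the other below, a share not computed for all genes with 2 regions. Those not yet described are rpl10, with 212 and 199 normalised reads at its promoter (−0.09, −0.38 to 0.19), rpl14, with 454 and 432 at the TSS (−0.07, −0.27 to 0.12) and 0.14 (0.02 to 0.27) upstream, rpl3, with 527 and 571 (0.12, −0.06 to 0.29), rps9, with 480 and 457 (−0.07, −0.26 to 0.12), and rps28, with 215 and 233 (0.12, −0.16 to 0.39). The promoters of these genes stayed within counting error, apart from the upstream rpl14 region.

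The name rule did not reach every ribosomal protein. Of 79 cytosolic ribosomal proteins listed, 57 had a region under a member symbol and 2 under another symbol. A further 15 regions at 14 genes carry no symbol in the deposited table. The gene name table pairs their identifiers with ribosomal proteins, and these regions stand for 12 more of the listed proteins. For the other 8, no region was found under a member symbol or among the regions without a symbol. These 15 regions were not used for any count above. They had a wild type median of 378 normalised reads and a median log2 ratio of 0.22 (quartiles −0.03 to 0.38), with 8 above 0 beyond counting error, 1 below and 0 past 2-fold. Of all regions, 20.0% were above, 18.0% below, 3.78% at least 2-fold higher and 4.03% at least 2-fold lower. Within 1 kb of the TSS, where 14 of the 15 lay, these shares were 27.2%, 9.67%, 2.68% and 1.02%. The strongest of the 15, at RPL31, held 1073 and 1382 (0.36, 0.25 to 0.48), and the stalk gene rplp2l held 419 and 593 (0.50, 0.32 to 0.69). The lower one was RPL27, with 291 and 238 (−0.29, −0.55 to −0.04). A region 3366 bp from rps27a held 31 and 60 (0.93, 0.30 to 1.61).

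Ribosomal protein genes with symbols outside the rule varied. The region at gnb2l1, which encodes the ribosomal scaffold Rack1, held 352 and 439 normalised reads (0.32, 0.11 to 0.52). At faua, which encodes a ubiquitin-like protein fused to a small subunit protein, the region 64 bp from the TSS held 602 and 665 (0.14, −0.02 to 0.30), while one 787 bp away held 293 and 177 (−0.72, −1.01 to −0.45). The gnb2l1 region was higher in the mutant library and the second faua region lower.

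Other genes of protein synthesis showed medians of the same order. Within 1 kb of the TSS, 45 regions of ribosome biogenesis genes had a median log2 ratio of 0.13, 48 of translation factor genes 0.15 and 43 of mitochondrial ribosome genes 0.23, beside 0.13 for ribosomal protein genes and 0.11 for all regions within 1 kb. Beyond counting error, 16 biogenesis regions were above 0 and 2 below, 17 and 2 of translation factors, and 11 and 1 of the mitochondrial ribosome, beside 27.2% above and 9.67% below of all regions within 1 kb. At 2-fold, 0 of the biogenesis and translation factor promoters passed in either direction, and 2 of the mitochondrial ribosome were higher, beside 2.68% higher and 1.02% lower of all regions within 1 kb. The extremes of these lists, with all their regions, were nol8 (47 and 91 normalised reads; 0.94, 0.43 to 1.48) and utp20 (−0.51, −1.27 to 0.17) in biogenesis, eif3ha (111 and 185; 0.73, 0.40 to 1.09) and a region 4970 bp from eef1db (37 and 11; −1.66, −2.95 to −0.75) among translation factors, and mrps7 (94 and 198; 1.07, 0.72 to 1.44) and mrps34 (−0.60, −1.39 to 0.08) in the mitochondrial ribosome. In level per kb the lists differed, with wild type medians of 576 normalised reads for ribosomal protein, 449 for translation factor, 340 for biogenesis and 219 for mitochondrial ribosome promoters. Per region, ribosomal protein and translation factor promoters were nearly equal, with wild type medians of 353 and 346.5 normalised reads. Those of biogenesis and mitochondrial ribosome promoters were 190 and 98.

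**Figure D5:**
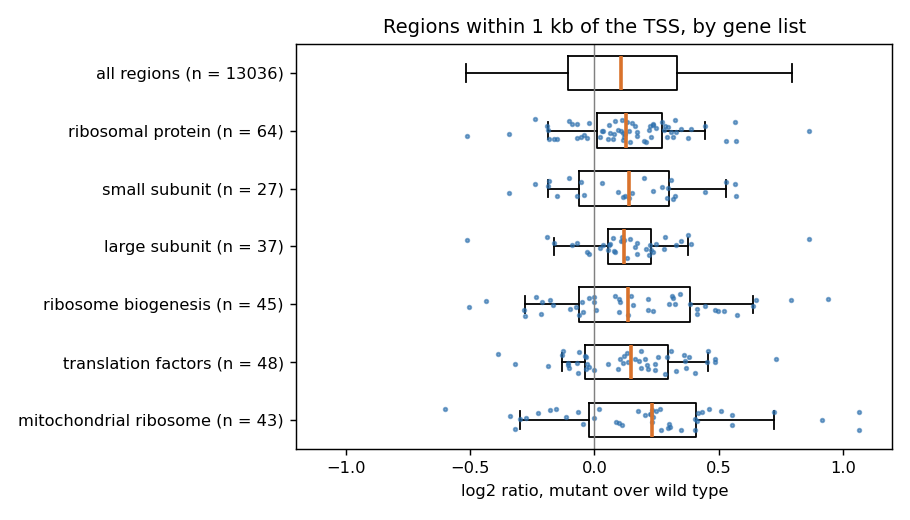
The log2 ratio (mutant to wild type) for regions within 1 kb of the TSS, by gene list. Boxes show the quartiles with the median in orange, whiskers the 5th and 95th percentiles, and points single regions (none drawn for all regions); every median lies between 0.11 and 0.23.

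Small and large subunit genes had close medians. Within 1 kb, 27 small subunit regions had a median log2 ratio of 0.14 (quartiles −0.06 to 0.30) and 37 large subunit regions 0.12 (0.05 to 0.23). Their wild type medians per kb were 452 and 640 normalised reads. The large subunit regions were thus the more open per kb in these libraries, and neither the level nor the ratio was tested between the subunits.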

How the data were processed

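ATAC-seq of 1 wild type and 1 npas4l mutant embryo was analysed from the authors' region table. Per the submitters' processing notes, which give no roles, the tools were DESeq, DESeq2 1.14.1, deepTools 2.5.4, MACS2, Picard 2.9.0, STAR 2.5.3a and Trimmomatic 0.36, and the builds danRer10 and GRCz10. The sources used here do not say how regions were called or merged, or whether reads were shifted for Tn5. The library columns are scores, normalised read counts that the authors rounded to whole numbers, as their values show. Of mutant values not above 4000, 99.96% were a whole read multiplied by 1.06505 and rounded. Most whole numbers can be reached so with a factor this near 1. The factor was therefore chosen by the whole numbers that no mutant value took. Dividing by this factor, and by its reciprocal of 0.939 for the wild type, gave estimated reads, used for totals, shares and intervals only. That the wild type factor is the reciprocal was assumed. The deposited log2 ratio, mutant to wild type per the file headers, equals the one with a pseudocount of 1. The deposited fraction of a region inside the gene body served for place. Whether starts count from 0 or 1 is not stated.

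Regions kept their deposited gene. All 63 member identifiers were in the gene name table, 55 under the same symbol. A region within 1 kb of the TSS is called a promoter. Named regions were the 6 highest and lowest by level and by ratio, the 3 widest and narrowest, those beyond 1 kb, those of genes with several regions, those of the stalk and 5S particle, rps19, rps6, rpl22 and rpl22l1, and the extremes of the other lists, and further names were chosen after their values were seen. The members and lists were chosen with earlier results of these data known. A planned motif search was not run, and values of a few genes are not reported here. The procedure was tested on simulated data. Software was matplotlib 3.10.9, scipy 1.17.1, pandas 2.3.3, numpy 2.4.6 and Python 3.11.15.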

Additional observations from a re-analysis of the deposited data

How the results depend on the processing

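The median log2 ratio of the 78 regions, 0.12, stayed between 0.08 and 0.13 under 2 other pseudocounts, 3 other scalings or centrings and 5 other choices of regions, of which 1 (adding regions found by identifier) was chosen after seeing the data. It was 0.051 once the median of regions of like level was subtracted and 0.031 once that of like level and promoter class was, and the large subunit median was then 0.028. These subtractions take away what other regions share, by construction. Regions past 2-fold numbered 1, against 5 at 1.5-fold, 0 within 1 kb of the TSS and 0 with a mean of at least 50, since the rps16 region past the gene end meets neither condition. The wild type median of 306 normalised reads was 478 per kb, which is another unit. All 172 recomputed ratios of the 43 named regions stayed inside their counting intervals. Most of these shifts were small beside the intervals, so this says little about single regions. A ratio near 0 could change sign, as at rpl9 (0.023, but −0.006 with both libraries scaled to the same total). Under that scaling, member promoters above 0 beyond counting error fell from 21 to 17. Scaling by the 10% of regions with the highest mean moved the median of all regions to −0.04. The counts beyond the counting interval under other scalings, given with the results, were chosen after seeing the data. Depth limits the weak regions most, as at rps16 with 8 normalised reads. No paired analysis was possible because each genotype has 1 library, and for the same reason no library could be left out.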
